A study of Schizosaccharomyces pombe with 3 samples.

Results

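In the fission yeast Schizosaccharomyces pombe, 4 genes of glycolysis, eno101, fba1, tdh1 and pfk1, are described here by the acetylation of lysine 9 of histone H3 (H3K9ac) along them. The genes were chosen by name, but with earlier results of these data known. Counts of them beside array-wide shares are therefore descriptive and not the outcome for a blind choice. They are 4 of the 893 protein-coding genes that the arrays covered with at least 3 probes. The probes inside them and within 500 bp of either end were read on every array. This gave 229 probes of the 43993 on an array, of which 149 lie in the 4 genes. Chromatin immunoprecipitation with an H3K9ac antibody was hybridised to tiling arrays of 60-base probes spaced 50 bp apart. The strains were a deletion of alp13, the asf1-1 allele of asf1, and wild type, each with 1 array. All cultures grew exponentially in rich medium (YEA) at 30 °C and were fixed at 18 °C in 3% paraformaldehyde before their DNA was sheared to 500 to 1000 bp. The labels give no other allele of any strain and do not say what the asf1-1 mutation is.

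H3K9ac is a mark of active chromatin that histone acetyltransferases set and histone deacetylases remove. Alp13 is a chromodomain subunit of a complex of the deacetylase Clr6 and is linked to deacetylation over transcribed genes, while Asf1 is a chaperone that carries histones H3 and H4. Glycolysis converts glucose to pyruvate, and cells growing on rich glucose medium transcribe several of its genes heavily. Phosphofructokinase (pfk1) commits sugar to the pathway, aldolase (fba1) splits fructose bisphosphate into triose phosphates, glyceraldehyde-phosphate dehydrogenase (tdh1) oxidises them, and enolase (eno101) makes phosphoenolpyruvate near the end.

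Each value below is the log2 ratio of Cy5 (immunoprecipitated DNA) to Cy3 (whole-cell extract DNA), centred on its array's median. A change is a mutant's value minus that of wild type, or asf1-1 minus the alp13 deletion where stated, and a gene was called higher or lower at 1.5-fold (0.585 on the log2 scale). With 1 array per strain there is no replicate error, no test was made, and every SD given is across the probes of 1 gene or window. Fragments of 500 to 1000 bp span several probes spaced 50 bp apart. Neighbouring probes are therefore not independent, and a small SD is no measure of precision. The 500 bp windows and the parts of eno101, fba1 and tdh1 are no longer than a fragment. Median Cy5 intensity was 2102, 1896 and 1809, and median Cy3 intensity 1619, 1693 and 1811, on the arrays of the alp13 deletion, asf1-1 and wild type. From 239 pairs of near-duplicate probes, the SD of a single probe's change was 0.133 between the arrays of the alp13 deletion and wild type, and 0.0768 between those of asf1-1 and wild type. Total H3 was not measured, so a change in the amount of H3 and one in H3K9ac cannot be told apart. The strain of each array rests on its label, since neither alp13 nor asf1 is among the measured genes. In the authors' value table, the column named for the alp13 deletion followed the asf1-1 array (r = 0.687 over probes) and the wild-type array (r = 0.645) more closely than its own (r = 0.528). The column named for asf1-1 ran opposite to its own array (r = -0.58), and also to those of the alp13 deletion (r = -0.57) and wild type (r = -0.533). That for wild type followed its own weakly (r = 0.225), and about as closely those of the alp13 deletion (r = 0.224) and asf1-1 (r = 0.222). The column medians were 0.111 for the alp13 deletion, -0.0276 for asf1-1 and 0.111 for wild type. The scale, centring and direction of that table stayed unknown, and it was used in no comparison.

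All 4 genes lie on chromosome II of the ASM294v3 assembly. The enolase gene eno101 (SPBC1815.01) spans II:2201196-2202652 on the plus strand with 29 probes, and fba1 (SPBC19C2.07) spans II:1688321-1689599 on the plus strand with 26 probes. The dehydrogenase gene tdh1 (SPBC32F12.11) spans II:2807595-2809051 on the plus strand with 29 probes, and pfk1 (SPBC16H5.02) spans II:2297164-2300391 on the minus strand with 65 probes. Counted from the gene start, the coding sequence runs from base 42 to 1361 in eno101, 47 to 1123 in fba1, 43 to 1053 in tdh1 and 98 to 2926 in pfk1, so the last 404 bases of tdh1 follow its stop codon. The 250 bases before each gene start are shown because H3K9ac there was lower in the alp13 deletion at all 4 genes. They come from the RefSeq genome of that assembly, 5′ to 3′ on the gene's strand, and capitals mark the TATA motifs TATAAA and TATATA and the core TGACGT of the cyclic AMP response element, each searched on both strands.
eno101: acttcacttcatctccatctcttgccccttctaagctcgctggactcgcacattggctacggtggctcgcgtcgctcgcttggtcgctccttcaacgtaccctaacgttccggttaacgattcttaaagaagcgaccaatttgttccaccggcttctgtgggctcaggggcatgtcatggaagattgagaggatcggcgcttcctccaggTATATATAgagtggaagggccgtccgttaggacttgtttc
fba1: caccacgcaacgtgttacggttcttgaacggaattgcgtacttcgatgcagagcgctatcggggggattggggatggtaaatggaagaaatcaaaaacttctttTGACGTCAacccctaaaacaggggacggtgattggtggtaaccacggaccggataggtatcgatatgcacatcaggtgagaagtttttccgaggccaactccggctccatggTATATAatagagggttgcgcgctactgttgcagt
tdh1: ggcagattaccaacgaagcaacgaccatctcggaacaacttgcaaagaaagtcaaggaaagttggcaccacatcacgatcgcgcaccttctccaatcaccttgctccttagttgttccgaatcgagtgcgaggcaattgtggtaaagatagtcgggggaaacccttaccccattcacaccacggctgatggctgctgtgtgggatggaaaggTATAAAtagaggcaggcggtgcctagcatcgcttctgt
pfk1: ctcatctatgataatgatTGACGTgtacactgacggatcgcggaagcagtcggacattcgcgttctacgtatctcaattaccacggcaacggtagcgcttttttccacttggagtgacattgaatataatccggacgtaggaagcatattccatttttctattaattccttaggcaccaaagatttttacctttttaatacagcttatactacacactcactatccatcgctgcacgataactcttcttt
These stretches are II:2200946-2201195 for eno101, II:1688071-1688320 for fba1, II:2807345-2807594 for tdh1 and, on the minus strand, II:2300392-2300641 for pfk1. The motif TATAAA was found before tdh1 and in 44.4% of the 5112 promoters of this length in the genome. TATATA, added to the search after these sequences were read, was found before eno101, in overlapping copies, and before fba1, against 26.7% of all promoters. In these 3 genes the motif started 40 to 34 bases before the gene start, and neither form was found before pfk1. TGACGT was found before fba1, where it overlaps its own reverse complement, and before pfk1, against 5.52% of all promoters. CCCCTC, the element bound by the zinc-finger factor Rst2 of the glucose-sensing pathway, was in none of the 4 and in 1.70% of all promoters. GC content was 53.2% before eno101, 49.6% before fba1, 51.2% before tdh1 and 40.8% before pfk1.

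The wild-type array gives the level along each gene from which the mutants differed. pfk1 stood apart from the other 3: its gene mean was -0.99 ± 0.53 (SD over 65 probes), the rank 39 of 893 from the lowest. fba1 had 0.00 ± 0.18 (26 probes), eno101 0.08 ± 0.33 (29 probes) and tdh1 0.28 ± 0.45 (29 probes). These 3 neighbours in the order lie within their spread across probes, and the median of all genes was 0.08. Along pfk1 the level was 0.57 over the 500 bp upstream, -0.41 in the first part of the gene (parts of equal length), -1.36 in the middle part, -1.21 in the last part and -0.52 over the 500 bp downstream. The medians of all genes for the same stretches were 0.55, 0.38, -0.06, -0.06 and 0.12. In eno101 the order was the other way round, with -0.43 upstream, -0.34 in the first part, 0.27 in the middle part, 0.26 in the last part and 0.54 downstream. Its upstream window ranked 88 of 891 from the lowest. fba1 was nearly level inside, at 0.02, -0.03 and 0.01 in its 3 parts, between 0.45 upstream and 0.94 downstream. In tdh1 the level was 0.06 upstream, -0.02 in the first part, 0.13 in the middle part, 0.70 in the last part and 0.65 downstream.

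**Figure D1:**
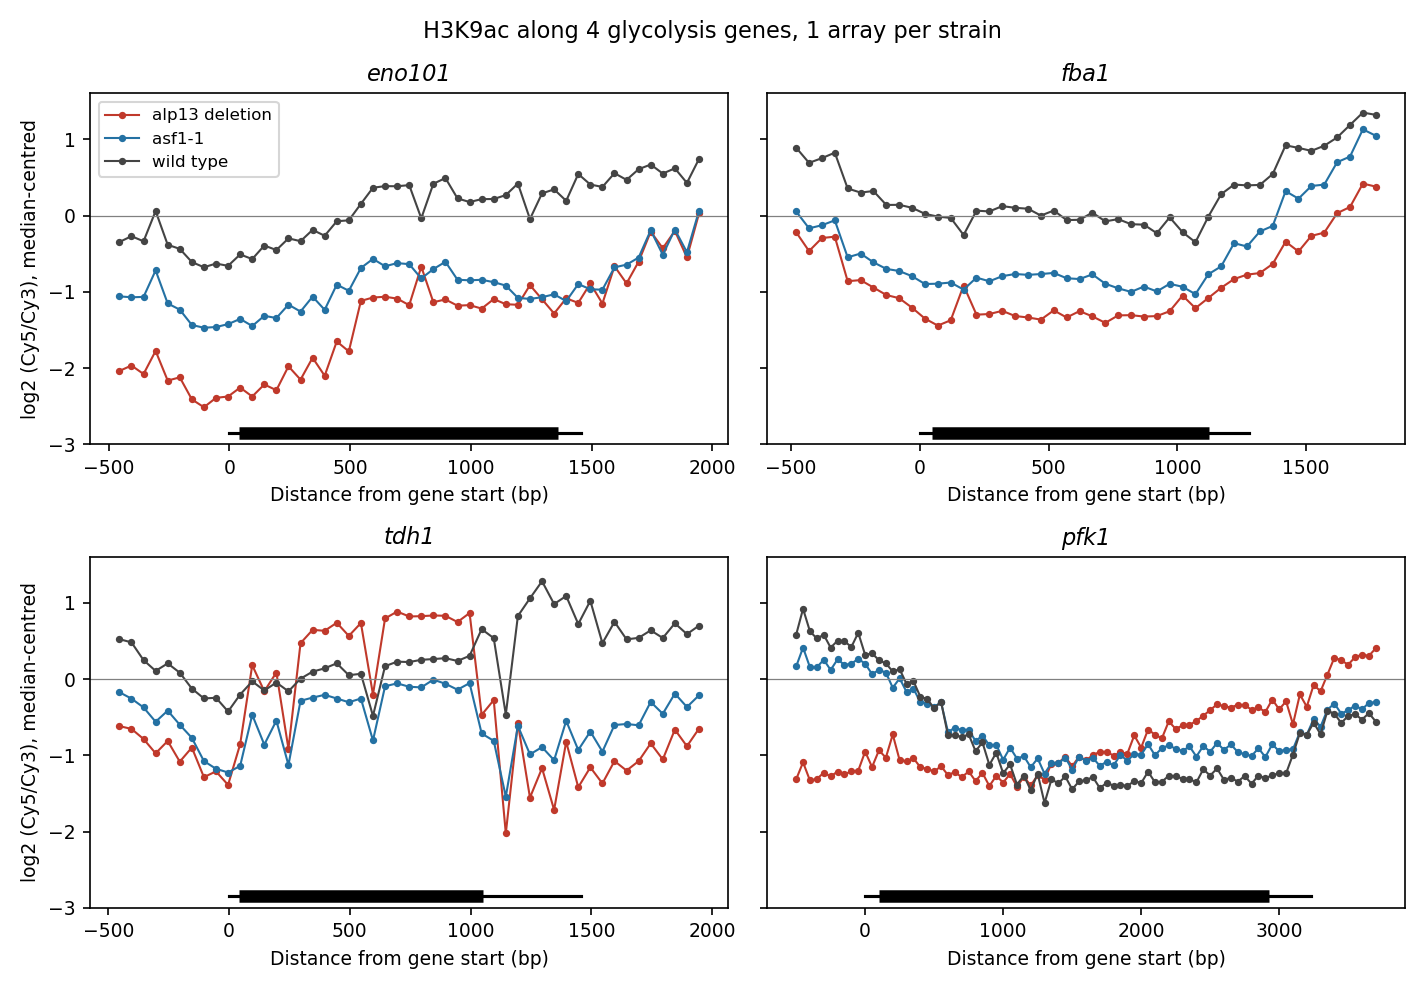
H3K9ac along the 4 genes, as median-centred log2 Cy5/Cy3 per probe (y axis) against distance from the gene start in bp (x axis), on the arrays of the alp13 deletion (red), asf1-1 (blue) and wild type (grey), 1 array each. The black bar is the gene, thick over its coding sequence. In eno101 and fba1 the mutant arrays lie below wild type throughout the gene, in tdh1 the alp13 deletion crosses above wild type in the coding sequence, and in pfk1 it crosses wild type inside the gene.

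In the alp13 deletion, enolase and aldolase carried less H3K9ac over the whole gene, whereas the gene means of tdh1 and pfk1 did not reach 1.5-fold. eno101 had -1.44 in the alp13 deletion, against 0.08 in wild type. Its change was -1.51 ± 0.27 (SD over 29 probes), or 2.85-fold lower, and ranked 16 of 893 from the most negative. fba1 had -1.23 in the alp13 deletion, against 0.00 in wild type. Its change was -1.23 ± 0.19 (SD over 26 probes), or 2.34-fold lower, and ranked 30. All 29 probes of eno101 and all 26 of fba1 were lower by 1.5-fold. tdh1 had -0.05 in the alp13 deletion, against 0.28 in wild type, and its change of -0.33 ± 1.15 (SD over 29 probes) hid probes between -2.70 and 0.67. pfk1 had -0.88 in the alp13 deletion, against -0.99 in wild type, with a change of 0.11 ± 0.70 (SD over 65 probes). Thus 2 of the 4 genes were lower by 1.5-fold and none higher, against a background of 21.8% lower and 15.3% higher among 893 genes. The median change was -0.78 over the 4 genes and -0.07 over all genes. With each array centred on its intergenic probes instead, the median of the 4 turned to 0.41 and that of all genes to 1.12, so the sign is relative to the array median and the ranks are not affected. Under that centring tdh1 (0.85) and pfk1 (1.30) were higher by 1.5-fold, and eno101 (-0.33) and fba1 (-0.04) were within the limit.

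The upstream windows were lower in the alp13 deletion at all 4 genes, which is near the background of 72.5% of 891 genes. Upstream of eno101 the level was -2.18 in the alp13 deletion, against -0.43 in wild type, a change of -1.75 ± 0.06 (SD over 10 probes). Upstream of pfk1 it was -1.24 in the alp13 deletion, against 0.57 in wild type, a change of -1.81 ± 0.12 (SD over 10 probes). The windows of fba1 (change -1.18) and tdh1 (change -1.03) lay nearer to the median of all genes, -0.93. With intergenic centring only the pfk1 window stayed lower by 1.5-fold, at -0.62, while eno101 had -0.57, fba1 0.010 and tdh1 0.16. Relative to each channel's own median, Cy5 in the pfk1 window changed by -1.22 and Cy3 by 0.56, against -1.49 and 0.23 in that of eno101. Cy5 changed by -1.29 and Cy3 by -0.15 at fba1, and by -1.28 and -0.28 at tdh1. In Cy5 taken alone, the pfk1 window thus changed least of the 4.

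Across pfk1 the change in the alp13 deletion was negative near the start and positive further in. The first part of the gene had -0.74, the middle part 0.32, the last part 0.79 and the downstream window 0.71. Single probes ranged between -1.49, found 50 bp after the start, and 1.01, found 2700 bp after it, and 12 of 65 probes were lower by 1.5-fold and 20 were higher. The medians of all genes for these 4 stretches were -0.45, 0.18, 0.08 and -0.39, highest in the middle part. pfk1 ranked 257 of 873 from the most negative in the first part and 731 of 873 in the last. On the alp13 deletion array itself the level was nearly flat over the promoter side, -1.24 upstream and -1.16 in the first part, and higher at -0.42 in the last part. In eno101 and fba1, in contrast, the change in the alp13 deletion was between -1.75 and -1.10 in every part.

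In asf1-1, 3 of the 4 genes were lower by 1.5-fold, against 2.13% of 893 genes, and pfk1 was again within that limit. None was higher, against 1.68% of genes. eno101 had -0.97 in asf1-1, against 0.08 in wild type. Its change of -1.04 ± 0.19 (SD over 29 probes), 2.06-fold lower, was the rank 3 of 893 from the most negative. fba1 had -0.82 in asf1-1, against 0.00 in wild type, and its change of -0.83 ± 0.07 (SD over 26 probes), 1.77-fold lower, ranked 7. tdh1 had -0.53 in asf1-1, against 0.28 in wild type, and its change of -0.81 ± 0.63 (SD over 29 probes), 1.75-fold lower, ranked 8. pfk1 had -0.79 in asf1-1, against -0.99 in wild type, and its change of 0.20 ± 0.18 (SD over 65 probes) ranked 704. All 29 probes of eno101 and all 26 of fba1 were lower by 1.5-fold in asf1-1, 12 of 29 in tdh1 and 0 of 65 in pfk1. The median change of the 4 was -0.82, against 0.00 for all genes. With intergenic centring eno101 alone stayed lower by 1.5-fold, at -0.65, while fba1 had -0.43, tdh1 -0.41 and pfk1 0.60, the last higher by 1.5-fold, with the median of all genes at 0.40. Taken as the median over its probes, tdh1 did not reach the limit, at -0.44.

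Upstream of the genes, the change in asf1-1 was -0.78 ± 0.04 at eno101, -0.87 ± 0.04 at fba1 and -0.72 ± 0.10 at tdh1 (SD over 10 probes each). It was -0.35 ± 0.09 at pfk1. Lower by 1.5-fold were thus 3 of 4 windows, against 13.6% of 891 genes. With intergenic centring 0 of 4 were, with changes of -0.38 at eno101, -0.47 at fba1 and -0.32 at tdh1, and without centring the tdh1 window was at -0.56. The change at pfk1 lay close to the median of all genes, -0.28. Inside eno101 the change in asf1-1 was larger towards the 3′ end, -0.89 in the first part, -0.99 in the middle part and -1.24 in the last part, while in fba1 it was -0.87, -0.82 and -0.79. The last part of tdh1, at -1.51, ranked 1 of 873 in asf1-1, and in the alp13 deletion, at -1.62, it ranked 8. On each mutant array the order of gene means from the lowest was eno101, fba1, pfk1 and tdh1, with every pair of neighbours apart by less than the larger of their SDs across probes. Both mutants are set against the same wild-type array, so these values are given side by side and their likeness is not a separate result.

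**Figure D2:**
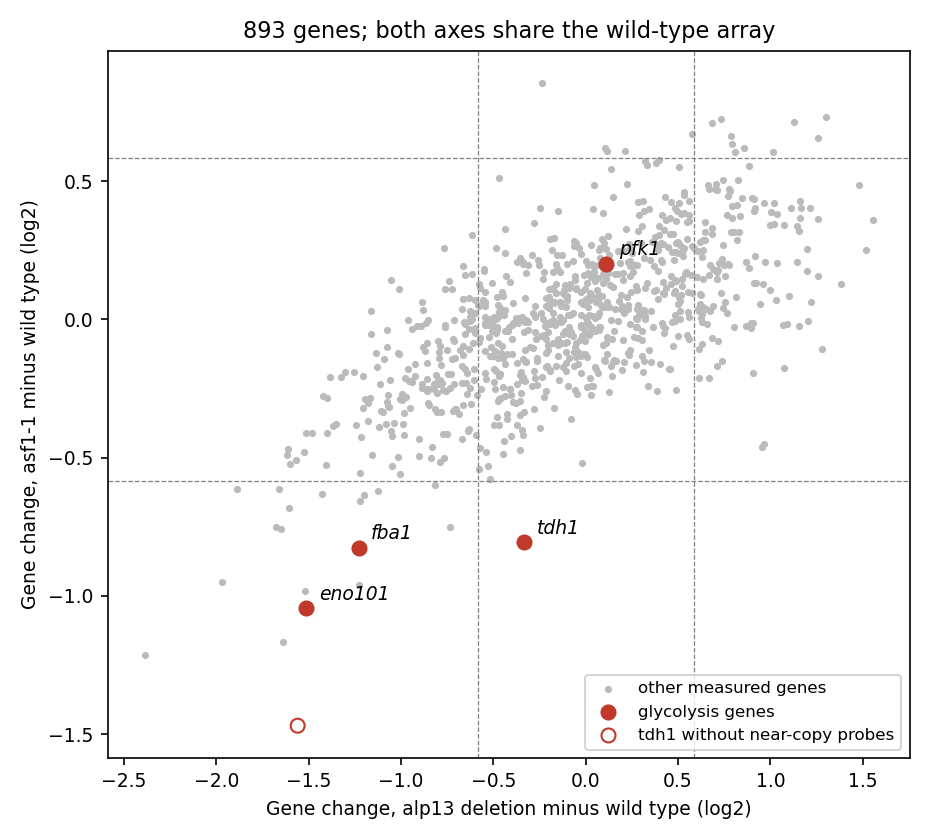
Gene-mean change in log2 Cy5/Cy3 for 893 genes, the alp13 deletion minus wild type (x axis) against asf1-1 minus wild type (y axis), with dashed lines at 1.5-fold. Filled red points are the 4 glycolysis genes and the open point is tdh1 without its near-copy probes, at -1.56 and -1.47. The axes share the wild-type array.

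The comparison of asf1-1 with the alp13 deletion leaves the wild-type array out. No gene body of the 4 differed by 1.5-fold, against 25% of 893 genes that did in either direction. The change was 0.47 for eno101, 0.40 for fba1, 0.09 for pfk1 and -0.47 for tdh1, with a median of 0.25, against 0.08 for all genes. With intergenic centring tdh1 (-1.26) and pfk1 (-0.70) were lower in asf1-1, as were 539 of 893 genes, with the median of all genes at -0.71. With normexp eno101 was higher (0.83), as were 217 of 893 genes. tdh1 was lower without centring (-0.72) and with the gene median (-0.70), as were 171 and 122 of 893 genes. Upstream, 2 of 4 windows were higher in asf1-1, pfk1 by 1.46 ± 0.03 and eno101 by 0.97 ± 0.06 (SD over 10 probes each), against 56.5% of 891 genes. With intergenic centring the pfk1 window remained higher and that of eno101, at 0.19, did not. The windows of tdh1 (0.31) and fba1 (0.31) were not. The pfk1 window ranked 878 of 891 from the most negative: all 10 of its probes were at or above 0.12 in asf1-1 and at or below -1.09 in the alp13 deletion.

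The profile of tdh1 differed between the region it shares with another gene and the rest. S. pombe has a second glyceraldehyde-phosphate dehydrogenase gene, gpd3 (SPBC354.12, II:578117-580056), which has no probe of its own on the array. Of the 29 probes of tdh1, 18 match gpd3 at 47 to 60 of 60 bases, and 3 of them are identical to it. Their Cy3 and Cy5 signals can hold DNA of either gene. A pair of these 60-base stretches, taken from the genome under the probes 246 and 696 bp after the tdh1 start, is shown, with differing bases in capitals: the near-copy probe with the lowest change in the alp13 deletion, and the identical probe with the highest.
tdh1 at 246 (II:2807811-2807870): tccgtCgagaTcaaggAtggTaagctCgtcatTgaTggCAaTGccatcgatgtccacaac
gpd3 beside it (II:578905-578964): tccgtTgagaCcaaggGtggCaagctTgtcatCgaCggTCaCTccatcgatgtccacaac
tdh1 at 696 (II:2808261-2808320): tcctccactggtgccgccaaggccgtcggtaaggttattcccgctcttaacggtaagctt
gpd3 beside it (II:579355-579414): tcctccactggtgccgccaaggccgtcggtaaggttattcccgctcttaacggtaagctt
The pair at 246 differs at 11 bases, and its change was -0.75 in the alp13 deletion and -0.97 in asf1-1. The pair at 696 is identical, and its change was 0.66 in the alp13 deletion and -0.28 in asf1-1. Both were picked by their change in the alp13 deletion, so they do not show that the change follows the match. The near-copy probe 146 bp after the start, with 47 bases matched, changed by -0.01 there. Mean Cy3 intensity was 342 at 246 and 3466 at 696.

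The 18 near-copy probes and the other 11 probes of tdh1 gave different pictures of the gene. The near-copy probes averaged 0.51 ± 0.49 in the alp13 deletion, -0.31 ± 0.32 in asf1-1 and 0.09 ± 0.20 in wild type (SD over 18 probes). The other 11 averaged -0.97 ± 0.67 in the alp13 deletion, -0.88 ± 0.31 in asf1-1 and 0.59 ± 0.58 in wild type (SD over 11 probes). The change was thus 0.42 ± 0.34 over the near-copy probes and -1.56 ± 0.92 over the rest in the alp13 deletion. In asf1-1 it was -0.40 ± 0.18 over the near-copy probes and -1.47 ± 0.52 over the rest. Without the near-copy probes tdh1 would rank 13 of 893 in the alp13 deletion and 1 of 893 in asf1-1, 3 of the 4 genes would be lower by 1.5-fold in each mutant, and tdh1 would differ between asf1-1 and the alp13 deletion by 0.09. Genes other than the 4 were not screened for near copies, so these ranks set a filtered gene against unfiltered ones. The remaining probes of tdh1 are not spread evenly. At the 3′ end lie 9, of which 8 are past the coding sequence, and 2 lie at the 5′ end. The change was -1.86 ± 0.67 in the alp13 deletion and -1.64 ± 0.38 in asf1-1 over those 9, against -0.22 and -0.69 over the 2 at the 5′ end, so the 3′ stretch sets the ranks above. They also differ in composition and brightness, with a median GC content of 36.7%, against 54.2% for the near-copy probes, and a median Cy3 intensity of 620, against 3223. In the alp13 deletion, Cy3 relative to its own median changed by -0.38, -0.26 and 0.34 in the first, middle and last parts of tdh1. Cy5 changed by -0.24, 0.32 and -1.25 in the same order. The part of gpd3 DNA, of position, of GC content and of the Cy3 change in the difference between the 2 sets of probes was not tested. eno101 has 2 probes that match the second enolase gene, eno102 (II:58136-59690), at 45 to 47 bases. Without them its change was -1.53 in the alp13 deletion and -1.05 in asf1-1.

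**Figure D3:**
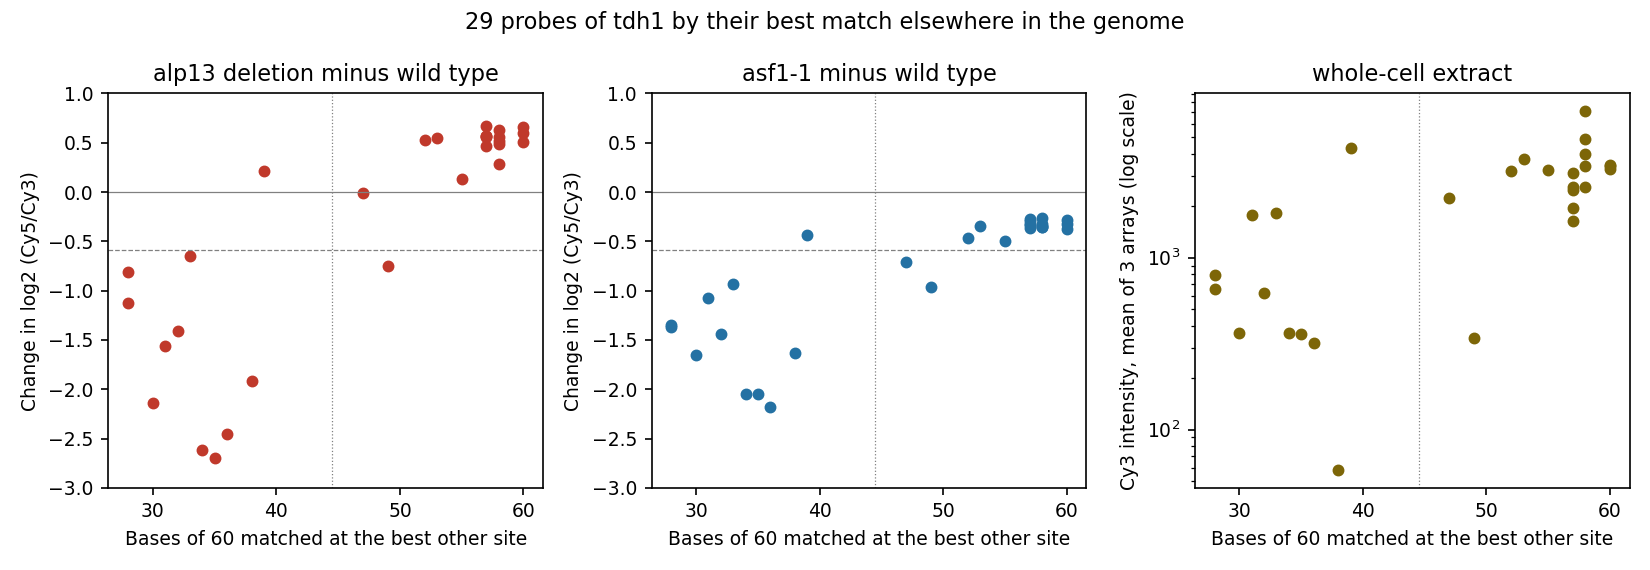
The 29 probes of tdh1, with the number of their 60 bases matched at the best other genome site (x axis) and the change in log2 Cy5/Cy3 for the alp13 deletion (left) and asf1-1 (middle) minus wild type, or the Cy3 intensity averaged over the arrays on a log scale (right). The dotted line separates probes with fewer than 45 matched bases from near-copy probes. In the alp13 deletion, near-copy probes have changes from -0.75 to 0.67 and the others from -2.70 to 0.21. In asf1-1, near-copy probes lie from -0.97 to -0.26 and the others from -2.18 to -0.44.

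The lower H3K9ac was not bounded by the genes, but probes outside protein-coding genes were also lower in both mutants across the arrays. Over 10884 such probes the median level was -0.85 in the alp13 deletion, -0.07 in asf1-1 and 0.33 in wild type. A run of lower probes was taken as a stretch where the running median of 5 probes stayed at or below the 1.5-fold limit. In the alp13 deletion, the run over eno101 was 5750 bp long, from 3755 bp before the gene start to 538 bp past its end, and that over fba1 was 5850 bp long, from 3780 bp before the start to 791 bp past the end. They ranked 7 and 6 by length among 534 runs on chromosome II, whose median length was 1000 bp. In asf1-1 the runs over eno101 (5350 bp) and fba1 (5250 bp) ranked 1 and 2 among 313 runs with a median of 350 bp. At tdh1 each mutant had a run on either side of the near-copy region, of 3200 bp and 2100 bp in the alp13 deletion and of 3250 bp and 1150 bp in asf1-1. At pfk1 the alp13 deletion had a run of 4300 bp that began 3750 bp before the gene and ended 550 bp inside it, and asf1-1 had none over the gene. These lengths depend on the limit and the centring. In asf1-1, the run over eno101 was 2300 bp without centring and 650 bp after normexp background correction, and at 2-fold it was 1100 bp over eno101 and 0 bp over fba1. With intergenic centring, fba1 had no run in either mutant and eno101 had runs of 200 bp in the alp13 deletion and 1100 bp in asf1-1.

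**Figure D4:**
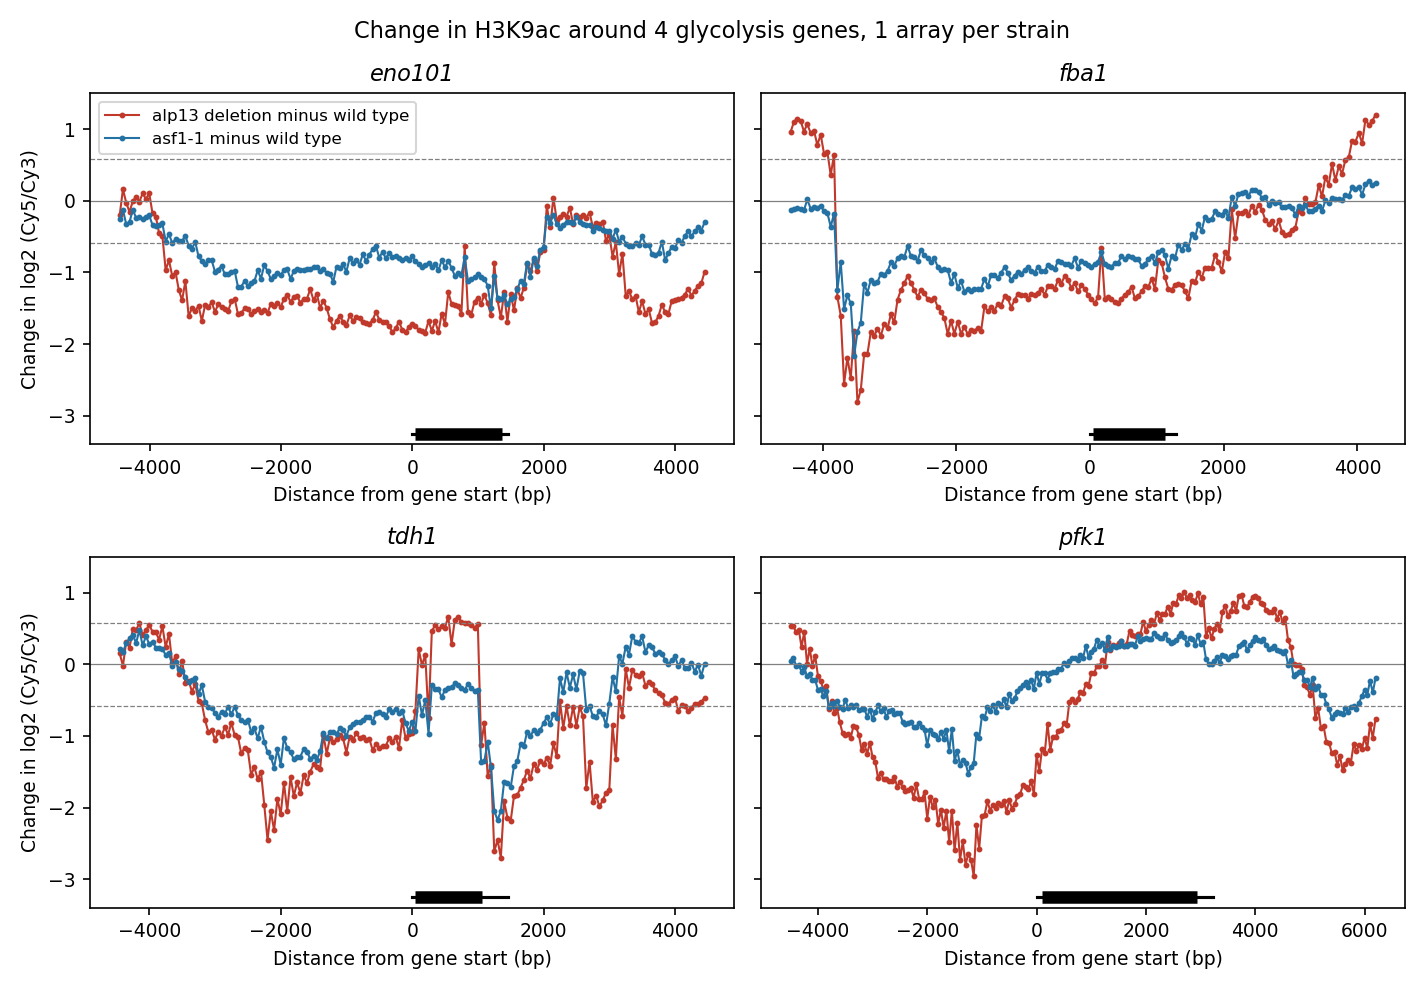
Change in log2 Cy5/Cy3 per probe (y axis) around the 4 genes against distance from the gene start in bp (x axis), for the alp13 deletion (red) and asf1-1 (blue) minus wild type, with dashed lines at 1.5-fold and the gene as a black bar. The lower stretch reaches 3755 bp before eno101 and 3780 bp before fba1 in the alp13 deletion. At pfk1 it ends 550 bp inside the gene.

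The runs covered non-coding stretches beside the genes, and some reached into neighbouring genes. The run over fba1 spanned its upstream neighbour mug124 in both mutants. In the alp13 deletion, the downstream run at tdh1 spanned its neighbour tfb5. Upstream of fba1, mug124 (a gene named for increased expression in meiosis) had -0.28 in the alp13 deletion, 0.25 in asf1-1 and 1.24 in wild type. Its change was -1.52 ± 0.23 in the alp13 deletion and -0.98 ± 0.17 in asf1-1 (SD over 41 probes), the ranks 14 and 4 of 893. The long non-coding RNA SPNCRNA.1453 (II:1686427-1687926) overlaps the 5′ end of mug124 and reaches towards fba1. It shares probes with mug124, and its change was -1.43 in the alp13 deletion against -1.04 in asf1-1. Downstream, the splicing factor gene prp38 changed by -0.40 in the alp13 deletion and -0.02 in asf1-1. The neighbours of eno101, cup1 upstream and cut2 (securin) downstream, changed by -0.43 and -0.34 in the alp13 deletion and by -0.34 and -0.40 in asf1-1. Inside the 3454 bp between cup1 and eno101 lies the non-coding RNA SPNCRNA.394. It changed by -1.47 in the alp13 deletion and -1.05 in asf1-1, values close to those of eno101 itself. The non-coding RNAs named were chosen after their values were seen and are not all of those near the 4 genes. Others changed less in the alp13 deletion and asf1-1. SPNCRNA.5536 past eno101 had -0.49 and -0.52, SPNCRNA.5302 past fba1 -0.21 and -0.10, and SPNCRNA.5584 past pfk1 0.12 and -0.06. Others were as low, such as SPNCRNA.5824 before tdh1, at -1.59 and -1.02.

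Upstream of tdh1 the non-coding RNA SPNCRNA.1550, which ends 2 bp before the gene start, changed by -1.12 in the alp13 deletion and -0.88 in asf1-1. Beyond it, pgm1 had changes of 0.00 and 0.11. Downstream of tdh1, tfb5, which encodes a subunit of the transcription factor TFIIH, changed by -1.22 ± 0.58 in the alp13 deletion and -0.43 ± 0.25 in asf1-1 (SD over 13 probes). At pfk1 the divergent non-coding RNA SPNCRNA.1501 starts 270 bp before the gene start and changed by -1.91 ± 0.45 in the alp13 deletion and -0.82 ± 0.28 in asf1-1 (SD over 61 probes). The protein-coding neighbours of pfk1 stayed within 1.5-fold: uba2, whose 3′ end overlaps pfk1 by 78 bp, had 0.28 and 0.00, and sad1, which encodes a spindle pole body protein, had -0.01 and -0.13, in the alp13 deletion and asf1-1. The overlapping genes share probes, so the last bases of pfk1 and uba2 cannot be told apart.

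Other genes of central carbon metabolism were sparsely covered, since the arrays hold mainly the middle of chromosome II. Of 52 genes listed for glycolysis and gluconeogenesis, sugar supply, fermentation, the pentose phosphate pathway and the citric acid cycle, 50 were found in the annotation and 8 had 3 or more probes. Of the 15 of glycolysis and gluconeogenesis, 5 were measured, the 4 described here and pyr1, the pyruvate carboxylase gene. pyr1 had -1.46 in the alp13 deletion, -1.22 in asf1-1 and -1.34 in wild type, and so lay low on every array. The same held for pfk1, at -0.88, -0.79 and -0.99 in the same order. pgm1, for a phosphoglucomutase, had -0.88 in the alp13 deletion, -0.76 in asf1-1 and -0.87 in wild type. Transketolase, tkt1, of the pentose phosphate pathway, had -1.89 in the alp13 deletion, -1.31 in asf1-1 and -1.09 in wild type. The ketoglutarate dehydrogenase gene kgd1, of the citric acid cycle, had -0.29 in the alp13 deletion, -1.03 in asf1-1 and -1.11 in wild type. Of these 4 genes, 1 was lower by 1.5-fold in the alp13 deletion (tkt1, -0.80) and 1 higher (kgd1, 0.81), against 21.8% and 15.3% of 893 genes. In asf1-1, 0 of the 4 were lower, against 2.13% of genes. Their median change was -0.06 in the alp13 deletion, against 0.10 in asf1-1.

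**Figure D5:**
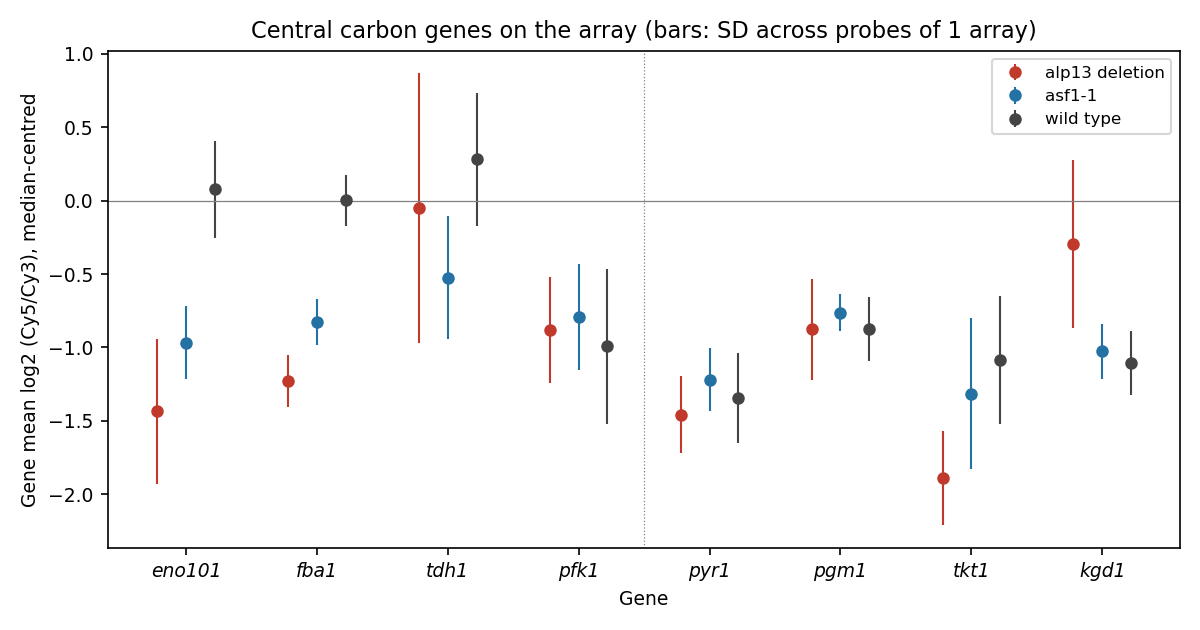
Gene-mean log2 Cy5/Cy3 (y axis) of 8 measured central carbon genes on the arrays of the alp13 deletion (red), asf1-1 (blue) and wild type (grey), with bars for the SD across the probes of 1 array, which is no replicate error. eno101 and fba1 lie at 0.08 and 0.00 in wild type and at or below -0.82 in both mutants, and the 4 genes right of the dotted line lie below 0 on every array.

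The genes most like each of the 4 were taken as the 3 with the smallest Euclidean distance over the 3 gene means. For eno101 these were SPBC16E9.20 (distance 0.17), fba1 (0.26) and SPBPB2B2.18 (0.30). For fba1 they were the small heat shock protein gene hsp16 (0.24), the histone H3 gene hht2 (0.25) and eno101 (0.26), so enolase and aldolase were among each other's nearest. hsp16 had -1.10 in the alp13 deletion, -0.65 in asf1-1 and -0.09 in wild type, and hht2 had -1.30, -0.63 and -0.14 in the same order. The nearest genes of tdh1, rtc6, SPBC17G9.12C and dot2, were at 0.35 to 0.40, but its gene means include the near-copy probes and were -0.97, -0.88 and 0.59 without them (the alp13 deletion, asf1-1 and wild type). The nearest to pfk1 were spo14 (0.12), pgm1 (0.12) and tif307 (0.13).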

How the data were processed

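H3K9ac immunoprecipitates (Cy5) and whole-cell extract (Cy3) of 3 strains were hybridised to 1 two-colour array each, after amplification by random-primed PCR, per the labels' protocols. The deposited scanner files come from Agilent Feature Extraction 10.7.3.1, and their processed intensity values are background-subtracted and dye-normalised, per the file headers. Their own log ratios are log10 values, per the file headers, and the authors' deposited value table, a score of unknown scale, entered no comparison. The sources used here do not name the array's build. Probes were placed on ASM294v3 by a constant offset, 1800 bp at the 4 genes, found by matching GC content to Cy3, since array positions run past the reference chromosome's end. Local checks gave a best shift from -2 to 4 bp.

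The log2 ratio of the deposited processed intensities was centred on each array's median over 43912 probes not marked as outliers, with no loess or quantile step. A gene's value is the mean over probes centred in it. Each part of a gene is of equal length. Near-copy probes match a second genome site at 45 or more of 60 bases (blastn 2.17.0). The steps were tested on simulated data.

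Genes named are the 4, their nearest protein-coding neighbours, the measured genes of the central carbon lists and the 3 most alike genes. A listed gene is not reported here and entered no list count. The non-coding RNAs were chosen after their values were seen. The members and lists were chosen with earlier results of these data known. Alternatives were no centring, intergenic centring, normexp with an offset of 50 (on median signals, since the files hold no mean signal), the gene median, Cy5 alone, a common spread, probes above background, whole probes, a 250 bp window, 2-fold and, added after seeing the data, no near-copy probes. The arrays' number, 1 per strain, limits the precision. Python 3.11.15 was used.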

Additional observations from a re-analysis of the deposited data

How the results depend on the processing

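No paired analysis was possible because each strain has 1 array. Of 77 alternative values for the counts and medians over the 4 genes, 66 kept within 1.5 times the count or within 1 SD across the 4 genes of the median, 10 moved and 1 reversed. Since that SD is wide, some of the 66 shifted: the median change in the alp13 deletion, -0.78, became -0.37 without centring, -0.49 with the gene median and -1.38 without near-copy probes, and that in asf1-1, -0.82, became -0.42 with intergenic centring. Intergenic centring moved most: in the alp13 deletion 0 genes were lower by 1.5-fold, in asf1-1 only 1 was, 2 differed between asf1-1 and the alp13 deletion, and the median change in the alp13 deletion reversed to 0.41. With it the median upstream change was -0.28 (the alp13 deletion) and -0.35 (asf1-1 allele). The changes upstream of fba1 and tdh1 in the alp13 deletion reversed to 0.010 and 0.16. Between asf1-1 and the alp13 deletion, 1 gene differed by 1.5-fold without centring, with the gene median and with normexp. Without centring the median upstream change in the alp13 deletion was -1.06. At 2-fold, 1 gene was lower in asf1-1. Centring also set the split of calls over all genes in the alp13 deletion, 195 lower and 137 higher with the array median, 72 and 310 without centring, and 3 and 705 with intergenic centring. In asf1-1 the split was 19 and 15, 10 and 50, and 4 and 209 in the same order, and 18 and 61 with normexp. Between asf1-1 and the alp13 deletion it was 78 and 145, 171 and 59, and 539 and 0 in that order of 893 genes. With normexp that split was 115 and 217, and with the gene median 122 and 140. The causes of these shifts were not tested, except that centring adds a constant to every probe.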
